A study of Homo sapiens with 9 samples.

Results

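AMI-5 was compared with its solvent in HMEC-1 cells across every gene of the count table that holds those libraries, 18598 genes in 6 of the 9 libraries of the series. HMEC-1 cells were derived from the small vessels of human skin and immortalised, and this line alone stands for all samples. The treated group received AMI-5 at 100 µM for 16 h and the control group received DMSO for the same time, with 3 libraries in each. All cells were kept at 5.5 mM glucose. Libraries were paired by the replicate number in their labels. A further group, AMI-1 at 100 µM for 16 h, is used only where AMI-5 was set directly against it.

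AMI-5 is a brominated xanthene dye that is used as an inhibitor of protein methyltransferases. Such enzymes move a methyl group from S-adenosylmethionine to arginine or lysine, on histones and on many other proteins, and so act on transcription and RNA processing. Cells meet reactive or thiol-depleting compounds with the transcription factor NRF2, which raises genes for glutathione and quinone metabolism. They meet a shortage of amino acids with ATF4, which raises genes for amino acid synthesis and uptake. Sterol synthesis is governed by the SREBP factors, which are released from the endoplasmic reticulum when sterol is scarce.

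The 6 libraries held between 14454113 and 23403103 counts. The libraries of replicate number 2 stood apart: the 2 of them differed from each other by a chi-square of 5.45 per gene and from the other 4 by 33.8 to 90.7. Of the variation among the 6 libraries 78.5% lay between replicate numbers and 12.5% between treatments (shares of the sum of squares), and the comparison was made within pairs. Of the endothelial identity list 30 genes were tested, and PECAM1 and CLDN5 were not analysed here. They summed to 1970 to 2580 CPM (counts scaled to a common library size) in control libraries and 1740 to 2100 CPM with AMI-5, CDH5 (vascular endothelial cadherin) giving 126 to 201 CPM and ENG (endoglin) 286 to 603 CPM, while ESAM lay near 1 CPM in controls. Markers of other cell types were present as well. In control and AMI-5 libraries 7 fibroblast genes summed to 3090 to 4530 and 2580 to 3210 CPM, 9 smooth muscle and pericyte genes to 576 to 965 and 532 to 838 CPM, and 7 epithelial genes to 248 to 424 and 214 to 383 CPM. CD14 and CD68, the leukocyte markers measured, summed to 28.9 to 42.4 and 32.3 to 48.6 CPM. The part of these markers in the results below was not tested.

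With AMI-5, 1711 genes were higher (9.32% of 18358 tested) and 2617 were lower (14.3%) at an adjusted p under 0.05 by the quasi-likelihood F test of edgeR with the pair as a block. These shares, 9.32% higher and 14.3% lower, are the background for every count of list members below, and 6.20% and 9.29% are those with correction for GC content. Most differences were small. The median absolute log2 fold change was 0.27 among genes called higher and 0.25 among those called lower, against a median standard error of 0.08 over all genes. Only 340 called genes changed by more than 1.5-fold, 245 of them upward, and 75 by more than 2-fold, 64 of them upward. Of the 4328 called genes, 4238 went the same way in 3 of 3 pairs. A call made within the same pairs favours this, so it is no separate evidence. In only 724 of them did the 3 AMI-5 libraries not overlap the 3 control libraries in CPM, and 7.62% of all genes tested did not overlap. Without the pairing no gene passed in edgeR (404 had an unadjusted p under 0.05), since the biological coefficient of variation was 23.0% without it and 3.84% with it. Higher genes were 39.5% of the calls, but 64.4% when libraries were scaled to total counts alone (2928 higher, 1618 lower) and 18.9% with DESeq2 (334 higher, 1436 lower of 10665 genes given an adjusted p). Without replicate number 2 the counts were 1119 and 1678. The labels do not say that libraries came from separate cultures, so p-values measure only the spread between these libraries.

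**Figure D1:**
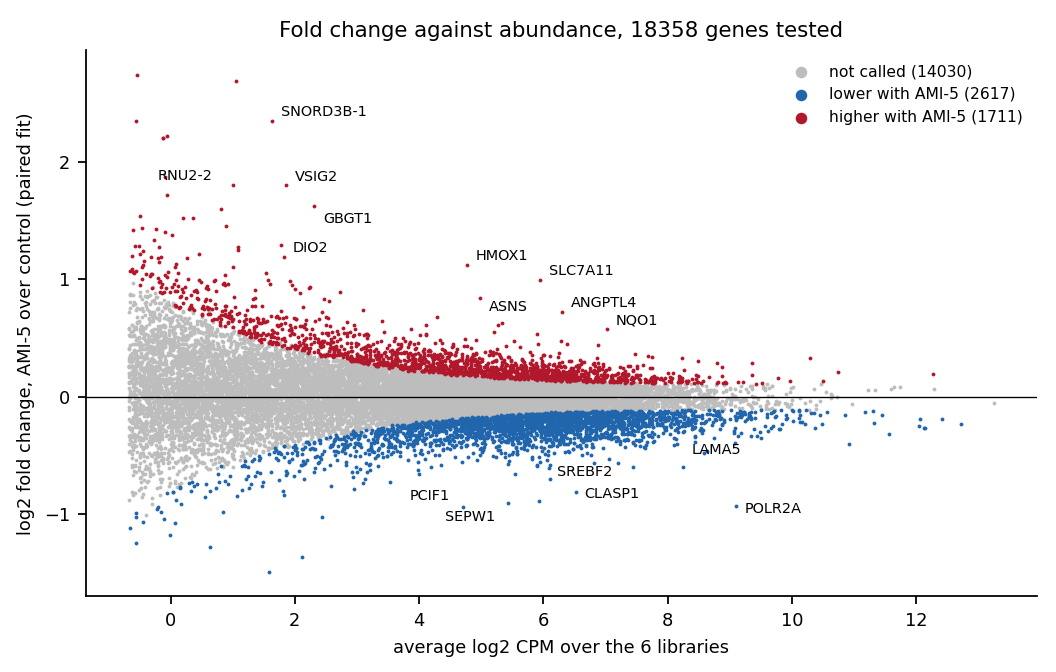
Log2 fold change of AMI-5 over control from the paired fit (vertical axis) against average log2 CPM (horizontal axis), 1 point per gene tested, coloured by call at an adjusted p of 0.05. Most of the 4328 called genes lie within 1.5-fold of no change, while the rises reach further than the falls among genes of low abundance.

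Genes of glutathione synthesis and defence against oxidants were among those that rose, SLC7A11 and HMOX1 the most. SLC7A11 encodes the cystine importer that feeds glutathione synthesis. Its level was 28.3, 58.9 and 36.4 CPM in control replicates 1, 2 and 3 and 53.3, 127.5 and 69.9 CPM with AMI-5. Every pair rose about as much, although the groups overlapped because replicate number 2 was high in both, and the rise was 2.00-fold (SE of the log2 fold change 0.06, adjusted p = 1.37e-11). HMOX1, the inducible heme oxygenase gene, read 18.2, 15.8 and 16.5 CPM in controls and 28.0, 57.7 and 29.9 CPM with AMI-5 (1.13 ± 0.13, adjusted p = 1.39e-06). Here the groups did not overlap, and replicate 2 rose the most. The quinone reductase gene NQO1 read 104 ± 11.2 CPM in controls and 155 ± 22.1 CPM with AMI-5 (SD, n = 3), a 1.49-fold rise (adjusted p = 9.24e-09). GCLM, a subunit of the enzyme that starts glutathione synthesis, rose by 0.54 (adjusted p = 6.18e-07), TXNRD1, a thioredoxin reductase gene, by 0.29 (adjusted p = 3.17e-05) and FTL, the ferritin light chain gene, by 0.26 (adjusted p = 7.95e-05).

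Of the 28 NRF2 targets tested, 9 rose (32.1%, beside 9.32% of all genes) and 2 fell (7.14%, beside 14.3%), with a median log2 fold change of 0.09 beside 0.002 over all genes. Correction for GC content gave 15 higher, where 6.20% of all genes were higher, and 0 lower. The transcript of NRF2 itself, NFE2L2, read 0.02 (adjusted p = 0.843), and KEAP1, which encodes its repressor, fell by 0.20 (adjusted p = 0.00434), though not with GC correction (0.448) or without replicate number 2 (0.0505). Both are named after their values were seen. The list of iron and ferroptosis genes shares SLC7A11, HMOX1 and FTL with this one, and 7 of its 20 members rose (4 without replicate number 3) and 1 fell.

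Genes of amino acid synthesis were among the rises too. ASNS, the asparagine synthetase gene, read 17.8, 28.6 and 21.4 CPM in controls and 32.1, 48.5 and 40.4 CPM with AMI-5, without overlap (1.80-fold, log2 0.84 ± 0.06, adjusted p = 4.64e-09). PSAT1 and PHGDH, which encode enzymes of serine synthesis, rose by 0.48 (adjusted p = 1.39e-06) and 0.33 (adjusted p = 1.72e-05). CHAC1, which encodes an enzyme that cleaves glutathione, rose by 0.56 (adjusted p = 0.00156), but not without replicate number 3 (adjusted p = 0.0793). In all, 12 of 37 genes of the amino acid response rose (32.4%, beside 9.32% of all genes) and 2 fell (5.41%, beside 14.3%), with a median of 0.11. With GC correction 19 rose, where 6.20% of all genes did, and without replicate number 3 only 7 did. The ATF4 transcript itself read 0.01 (adjusted p = 0.942; named after its value was seen).

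Among cytosolic aminoacyl-tRNA synthetases, which charge tRNAs with amino acids, 8 of 20 rose (40%, beside 9.32% of all genes) and 2 fell. WARS, for tryptophan, rose from 147 ± 2.61 to 171 ± 3.28 CPM (SD, n = 3; adjusted p = 0.000724), the groups not overlapping. GARS and TARS rose by 0.16 each (adjusted p = 0.00631 and 0.00646) and VARS fell by 0.25 (adjusted p = 0.000277). This count was fragile: 4, 4 and 3 members rose without replicate number 1, 2 or 3. GARS lost its call without number 2 or 3 (adjusted p = 0.0745 and 0.0518), TARS without number 3 (0.0558) and VARS with GC correction (0.213).

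Promoter sequences are shown for 5 genes of the amino acid, oxidant and sterol responses. These genes were picked by hand from those with a match to the elements below, so the matches are not a result. No match was recorded for SLC7A11, HMOX1, NQO1, FTL, PSAT1 or PHGDH, of which some may lack a promoter in the set searched. The stretches shown are RefSeq sequences of GRCh38.p14, read 5′ to 3′ on the gene's strand, 100 bases each and wholly upstream of the start site. Capitals mark a match to TGATGNAA (the C/EBP and ATF response element, for ASNS and CHAC1), to TGACNNNGC (the antioxidant response element, for GCLM and TXNRD1) or to TCACNCCAC (the sterol regulatory element, for SREBF2), searched on both strands. In CHAC1 and GCLM the match is on the other strand, and no match shown overlaps another.
ASNS: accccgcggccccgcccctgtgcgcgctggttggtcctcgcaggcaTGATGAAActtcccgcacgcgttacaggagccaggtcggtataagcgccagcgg
CHAC1: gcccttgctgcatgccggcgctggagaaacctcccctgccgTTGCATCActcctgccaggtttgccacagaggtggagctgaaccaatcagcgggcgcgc
GCLM: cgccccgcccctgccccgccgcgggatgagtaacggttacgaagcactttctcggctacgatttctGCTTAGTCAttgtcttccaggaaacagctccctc
TXNRD1: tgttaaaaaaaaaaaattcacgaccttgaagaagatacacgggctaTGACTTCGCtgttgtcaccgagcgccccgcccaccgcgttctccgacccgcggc
SREBF2: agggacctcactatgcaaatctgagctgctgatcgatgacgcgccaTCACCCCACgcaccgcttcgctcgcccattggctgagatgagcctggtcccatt
The stretches lie at chr7:97872423-97872522 (minus strand), chr15:40953221-40953320 (plus), chr1:93909431-93909530 (minus), chr12:104215634-104215733 (plus) and chr22:41832926-41833025 (plus). The first bases of the matches lie 68, 209, 34, 99 and 133 bases upstream of the start site.

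Promoter windows from 250 bases before to 50 after the start site were matched for 10678 of the 18281 gene symbols tested. The C/EBP and ATF element was in 2.63% of promoters of genes called higher and 1.63% of those called lower, beside 2.07% of those of all genes tested and 3.62% of the 35116 promoters in the table. The antioxidant element was in 14.1% and 14.8%, beside 14.2% and 13.3%. The sterol element was in 1.17% and 0.984%, beside 1.11% and 1.13%. Within the amino acid response list 8 of 46 promoters held the first element (17.4%), and within the NRF2 list 7 of 27 held the second (25.9%). The second was not particular to the NRF2 list. It was also in 13 of 46 promoters of the amino acid list (28.3%) and 4 of 15 of the synthetase list (26.7%). The sterol element was in 1 of 25 promoters of the cholesterol list and 1 of 24 of the fatty acid list, and SREBF2 had the only one among 10 promoters of cholesterol genes that fell. A match is a description of letters, and several promoters can belong to 1 gene.

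Among genes with a mean of 5 CPM or more under AMI-5, the largest rises by fold were in genes of other kinds, VSIG2 and GBGT1. HMOX1 and SLC7A11 came next. VSIG2, which encodes an immunoglobulin-domain membrane protein, read 1.68, 1.70 and 1.29 CPM in controls and 5.59, 4.72 and 5.59 CPM with AMI-5 (3.49-fold, log2 1.80 ± 0.17, adjusted p = 1.46e-07). GBGT1, which encodes a glycosyltransferase of Forssman glycolipid synthesis, read 3.30, 1.88 and 1.89 CPM and then 7.91, 5.54 and 7.70 CPM (3.09-fold, adjusted p = 1.37e-07). Neither pair of groups overlapped. B4GALNT1, a ganglioside synthase gene, also rose (0.58, adjusted p = 2.89e-05), among 6 of 25 glycosphingolipid genes that rose and 2 that fell. Without replicate number 2, 2 of them rose.

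Rises of 0.81 to 0.93 were found for TTC30A (a protein of intraflagellar transport), ADPRH (an ADP-ribosylarginine hydrolase), NPB (neuropeptide B), TRIM16L, ADM2 (adrenomedullin 2) and the non-coding RP11-521B24.3, with adjusted p from 3.89e-05 to 0.000112. SLC7A11-AS1, which is antisense to SLC7A11, rose by 0.92 (adjusted p = 3.33e-05). The strand setting of the counting is not given in the sources used here, so its reads cannot be told apart from those of SLC7A11. Among selenoprotein genes DIO2, which encodes the thyroid hormone deiodinase that makes the active hormone, read 1.55, 3.58 and 1.46 CPM in controls and 3.49, 7.73 and 3.68 CPM with AMI-5 (2.29-fold, adjusted p = 9.13e-06). Among immediate early genes 5 of 28 rose (2 without replicate number 2) and 11 fell (39.3%, beside 14.3% of all genes), FOSL1 by 0.37 (adjusted p = 6.69e-06). With GC correction 6 of these genes rose and 6 fell, and their median went from -0.112 to 0.025. Their medians in pairs 1, 2 and 3 were -0.21, 0.117 and -0.158.

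Some genes that respond to fatty acids through PPAR receptors rose as well. ANGPTL4, which encodes a secreted inhibitor of lipoprotein lipase, read 74.7, 41.5 and 60.9 CPM in controls and 104, 74.1 and 111 CPM with AMI-5, higher in every pair (log2 0.73 ± 0.06, adjusted p = 1.89e-08). PLIN2, which encodes a lipid droplet coat protein, read 68.1, 73.6 and 69.6 CPM and then 91.7, 108 and 90.5 CPM, without overlap (0.45, adjusted p = 9.89e-07). CPT1A, the gate of fatty acid entry into mitochondria, rose from 99.6 ± 7.36 to 135 ± 2.38 CPM (SD, n = 3; adjusted p = 1.14e-06). PDK4, which encodes a kinase that shuts down pyruvate dehydrogenase, rose 2.88-fold at under 3 CPM (adjusted p = 0.000441), ACAA2 by 0.30 (adjusted p = 0.000274) and the carnitine carrier gene SLC25A20 by 0.33 (adjusted p = 0.00342). Of 22 such genes tested 8 rose and 2 fell, with a median of 0.10, and 4 rose with DESeq2. This list was drawn up after values had been seen, so its count is a description.

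**Figure D2:**
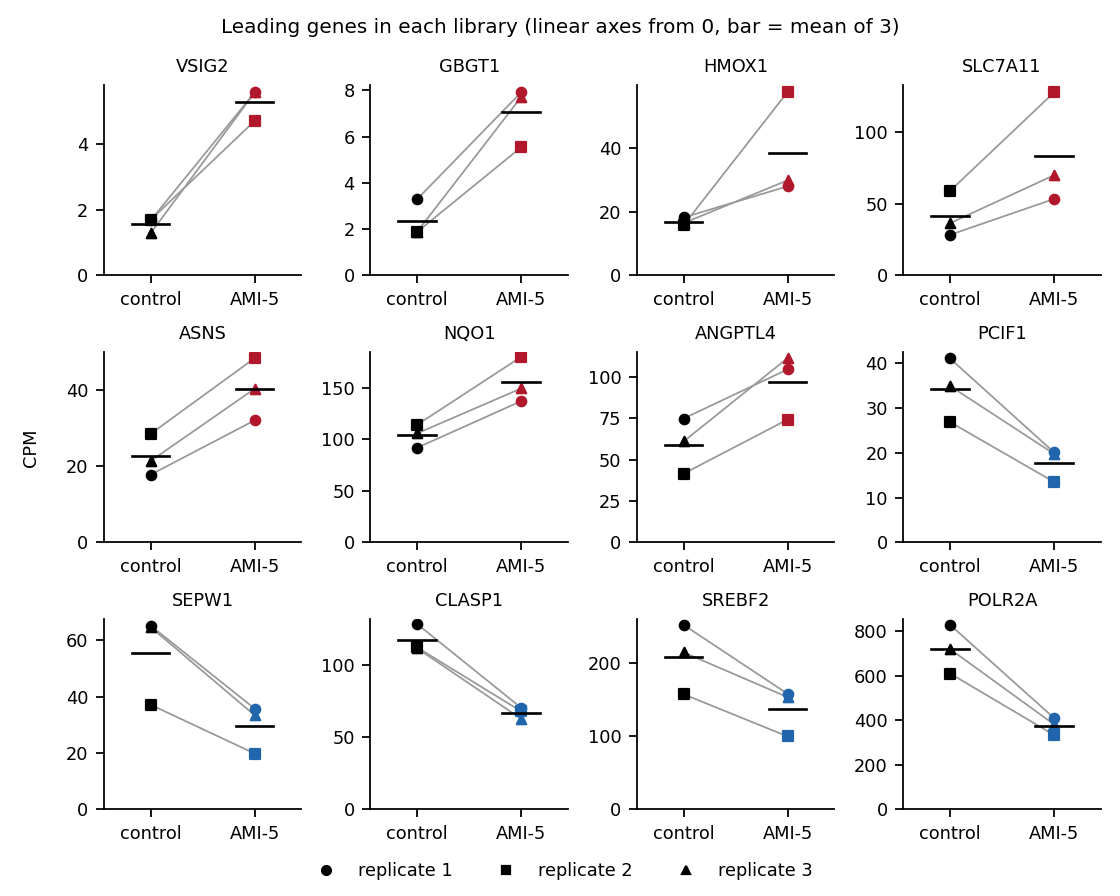
CPM (vertical axes, linear from 0) of 12 genes in the control and AMI-5 libraries, joined within each replicate number, with a bar at the mean of 3 libraries. All 3 lines run the same way in each panel, while the level often depends on the replicate number, as in SLC7A11, where AMI-5 replicate 1 lies below control replicate 2.

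POLR2A, the gene of the catalytic subunit of RNA polymerase II, had the lowest adjusted p of all genes. It read 830, 611 and 721 CPM in controls and 411, 335 and 382 CPM with AMI-5. The groups did not overlap, and the fall was 1.91-fold (log2 fold change -0.93 ± 0.04 SE, adjusted p = 2.06e-13). PCIF1, which encodes the methyltransferase that binds the tail of this polymerase and methylates the first adenosine of capped mRNA, read 41.0, 26.8 and 34.8 CPM in controls and 20.1, 13.5 and 19.7 CPM with AMI-5, also without overlap (-0.94 ± 0.07, adjusted p = 3.2e-09). Of 40 genes for polymerase II subunits and regulators of its tail, 12 fell and 4 rose, with a median of 0.006. Scaled to total counts, 9 fell and 10 rose. HEXIM1, an inhibitor of the elongation kinase, fell by 0.39 (adjusted p = 9.81e-06) and CDK9, that kinase, by 0.30 (adjusted p = 0.000158). COBRA1, a subunit of the negative elongation factor, fell by 0.28 (adjusted p = 0.000104). GC correction left 5 higher and 5 lower and ended the call of COBRA1 (adjusted p = 0.221). In the Mediator complex, which links activators to the polymerase, 7 of 32 genes fell and 2 rose (5 and 5 with total counts), led by MED16 (-0.43, adjusted p = 3.85e-06) and MED15 (-0.37, adjusted p = 1.22e-05).

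Other large falls were in unrelated genes. CLASP1, which encodes a protein of microtubule plus ends, read 128, 112 and 112 CPM in controls and 70.4, 67.96 and 62.8 CPM with AMI-5 (log2 fold change -0.81 ± 0.05, adjusted p = 4.06e-11). SEPW1, a small selenoprotein gene, read 65.2, 37.1 and 64.7 CPM and then 35.8, 19.8 and 33.4 CPM (-0.91 ± 0.06, adjusted p = 1.53e-10). Neither pair of groups overlapped. HHAT, which encodes the acyltransferase of hedgehog ligands, fell by 0.76 (adjusted p = 7.18e-05). The remaining largest falls were UTS2D (urotensin 2 domain) and the clone-named genes RP11-394D2.1, AC010170.1, RP11-69I8.3, RP11-525A16.4, RP11-96C23.7 and RP11-727F15.9, with log2 fold changes from -1.37 to -0.71. In 6 of those 7 the groups overlapped, since replicate number 2 was low in both. RP11-69I8.3, for example, read 154, 15.8 and 69.7 CPM in controls and 70.7, 6.91 and 47.8 CPM with AMI-5.

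Transcripts of arginine methyltransferases, the enzymes that AMI compounds are used against, showed small falls or none that passed. Of 13 arginine methyltransferase genes 4 fell and none rose, with a median of -0.004 (0.05 when scaled to total counts). PRMT1, which encodes the main enzyme of asymmetric arginine methylation, read 254, 165 and 226 CPM in controls and 190, 135 and 183 CPM with AMI-5 (log2 fold change -0.34 ± 0.04, adjusted p = 6.49e-06). PRMT7 fell by 0.30 (adjusted p = 0.00178). PRMT5, which encodes the main symmetric enzyme, fell by 0.19 (adjusted p = 0.00274), but not without replicate number 2 (0.0893). CARM1 fell by 0.18 (adjusted p = 0.00597), but not with GC correction (-0.01, adjusted p = 0.892).

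Of 35 lysine methyltransferase genes 10 fell and 3 rose, and of 21 demethylase genes 4 fell and 1 rose. Without 1 replicate number, 7 or 8 methyltransferase genes fell and at most 1 rose, and 2 to 4 demethylase genes fell. With total counts 6 methyltransferase genes fell and 4 rose, while 2 demethylase genes fell and 4 rose. With GC correction 6 methyltransferase genes fell and 0 rose, while 2 demethylase genes fell and 1 rose. DOT1L, whose product methylates histone H3 on lysine, read 112, 54.6 and 83.2 CPM in controls and 68.5, 38.2 and 58.3 CPM with AMI-5 (-0.58 ± 0.05, adjusted p = 7.99e-08). The row labelled MLL4, for which no GC content was found, fell by 0.43 (adjusted p = 8.63e-06). EHMT1 fell by 0.33 (adjusted p = 0.000163), EZH1 by 0.34 (adjusted p = 0.000581) and KDM5C, a demethylase gene, by 0.41 (adjusted p = 1.46e-06). SETD7, which encodes a lysine methyltransferase studied in endothelium, read 157 ± 14.9 CPM in controls and 157 ± 21.9 CPM with AMI-5 (SD, n = 3; adjusted p = 0.991). In DNA and RNA methylation 8 of 28 genes fell (5 without replicate number 2 or 3) and none rose. PCIF1 led that list, and DNMT1, the maintenance DNA methyltransferase gene, fell by 0.19 (adjusted p = 0.00192). Scaled to total counts, the medians of the lysine and the DNA and RNA lists were 0.047 and 0.004.

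Nearly all calls among genes of cholesterol and fatty acid synthesis were falls. SREBF2, which encodes the SREBP factor of cholesterol synthesis, read 253, 158 and 215 CPM in controls and 158, 100.0 and 154 CPM with AMI-5, lower in every pair (1.52-fold, log2 fold change -0.60 ± 0.05, adjusted p = 4.64e-09). SREBF1 fell by 0.59 (adjusted p = 4.63e-07). The enzymes MVD, LSS and DHCR7 of cholesterol synthesis fell by 0.66 (adjusted p = 1.46e-07), 0.42 (adjusted p = 1.46e-06) and 0.34 (adjusted p = 3.6e-05). In all, 12 of 27 cholesterol genes fell (44.4%, beside 14.3% of all genes) and none rose, with a median of -0.13. Their medians in pairs 1, 2 and 3 were -0.115, -0.124 and -0.104. In fatty acid synthesis 5 of 15 fell and 1 rose, among them FASN, the fatty acid synthase gene (-0.48, adjusted p = 5.5e-06), and the desaturase genes FADS2 (-0.38, adjusted p = 4.12e-06) and SCD (-0.34, adjusted p = 4.51e-06). With GC correction 14 and 8 members of these lists fell. The median of the second list was -0.042, and 0.011 when scaled to total counts.

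Many endothelial, adhesion and matrix genes were lower. ENG read 603, 362 and 477 CPM in controls and 431, 286 and 404 CPM with AMI-5 (log2 fold change -0.36 ± 0.04, adjusted p = 5.92e-06). CDH5, which holds endothelial junctions together, fell by 0.27 (adjusted p = 6.76e-05), the adhesion gene MCAM by 0.30 (adjusted p = 1.22e-05) and ROBO4 by 0.28 (adjusted p = 0.00031). Of 30 endothelial identity genes 13 fell (43.3%, beside 14.3% of all genes) and 1 rose, and 9 fell with GC correction, where 9.29% of all genes did. ESAM, a junctional adhesion gene named after its value was seen, was the one that rose, from 1.15 to 2.81 CPM (adjusted p = 0.000341). In bulk samples fewer cells of a type and less RNA per cell cannot be told apart. Of the 7 fibroblast markers 3 fell as well and none rose.

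LAMA5, which encodes a laminin chain of the basement membrane, read 555, 184 and 363 CPM in controls and 316, 126 and 269 CPM with AMI-5 (-0.60 ± 0.05, adjusted p = 4.7e-08). The integrin genes ITGA5 and ITGA3 fell by 0.33 (adjusted p = 3.62e-06) and 0.35 (adjusted p = 5.52e-06), and AGRN, the agrin gene, by 0.46 (adjusted p = 5.69e-06). In the list of collagens, laminins and integrins 16 of 33 fell and none rose (median -0.17). Of 28 actin and SRF targets 14 fell and 1 rose, led by PDLIM7 (-0.41, adjusted p = 1.13e-06), with FHL1 as the exception (0.28, adjusted p = 0.000131). The Notch list had 7 of 19 lower, only 3 without replicate number 1, and none higher. MAML1, a coactivator of Notch, fell by 0.40 (adjusted p = 5.02e-06) and NOTCH2 by 0.21 (adjusted p = 0.000925). With GC correction 10, 7 and 4 members of these lists were lower, and the medians went from -0.17, -0.12 and -0.18 to -0.08, -0.06 and -0.04. The medians of the endothelial, matrix and Notch lists were farthest from 0 in pair 1 (-0.262, -0.238 and -0.326).

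In ribosome production and respiration, as among all genes, more were lower than higher. Of 42 genes of ribosome biogenesis 16 fell and 1 rose, of 81 cytosolic ribosomal proteins 19 fell and 4 rose, of 75 mitochondrial ribosomal proteins 20 fell and none rose, and of 82 nuclear-encoded respiratory chain genes 20 fell and 5 rose. These falls were 38.1%, 23.5%, 26.7% and 24.4% of their lists, beside 14.3% of all genes, and the medians were -0.09, -0.04, -0.05 and -0.07. Examples are WDR74 (-0.39, adjusted p = 7.7e-05), RPS15 (-0.40, adjusted p = 7.86e-06), MRPS34 (-0.38, adjusted p = 3.16e-05) and CYC1 (-0.41, adjusted p = 1.46e-06). Without replicate number 2 only 5, 7, 4 and 13 of them fell. Scaled to total counts, the medians of both ribosomal protein lists were above 0 (0.011 and 0.008), and the calls were 10 higher and 9 lower for cytosolic ribosomal proteins and 12 and 12 for the respiratory chain. Splicing factors were lower in 15 of 53 cases and higher in 3, but lower in 6 without replicate number 2, and 8 were higher and 8 lower with total counts. Among them SNRPA fell by 0.40 (adjusted p = 3.85e-06) and SF3A2 by 0.40 (adjusted p = 6.08e-06).

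Transcripts of the mitochondrial genome went the other way. Of 31 such rows 15 rose and none fell: 5 of 13 messenger RNAs, 8 of 16 tRNAs and both ribosomal RNAs, where 9.32% of all genes rose. Of the messenger RNAs 3 rose without replicate number 2, 2 without number 3 and 3 with GC correction. MT-ND3, a subunit of complex I, read 322, 549 and 338 CPM in controls and 416, 642 and 404 CPM with AMI-5 (log2 fold change 0.29 ± 0.04, adjusted p = 3.06e-05). Mitochondrially encoded rows held 2.20%, 3.21% and 2.25% of counts in controls 1, 2 and 3 and 2.52%, 3.46% and 2.44% with AMI-5, higher in each pair. The rows of tRNAs lie inside longer precursor transcripts and were counted without a known strand.

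**Figure D3:**
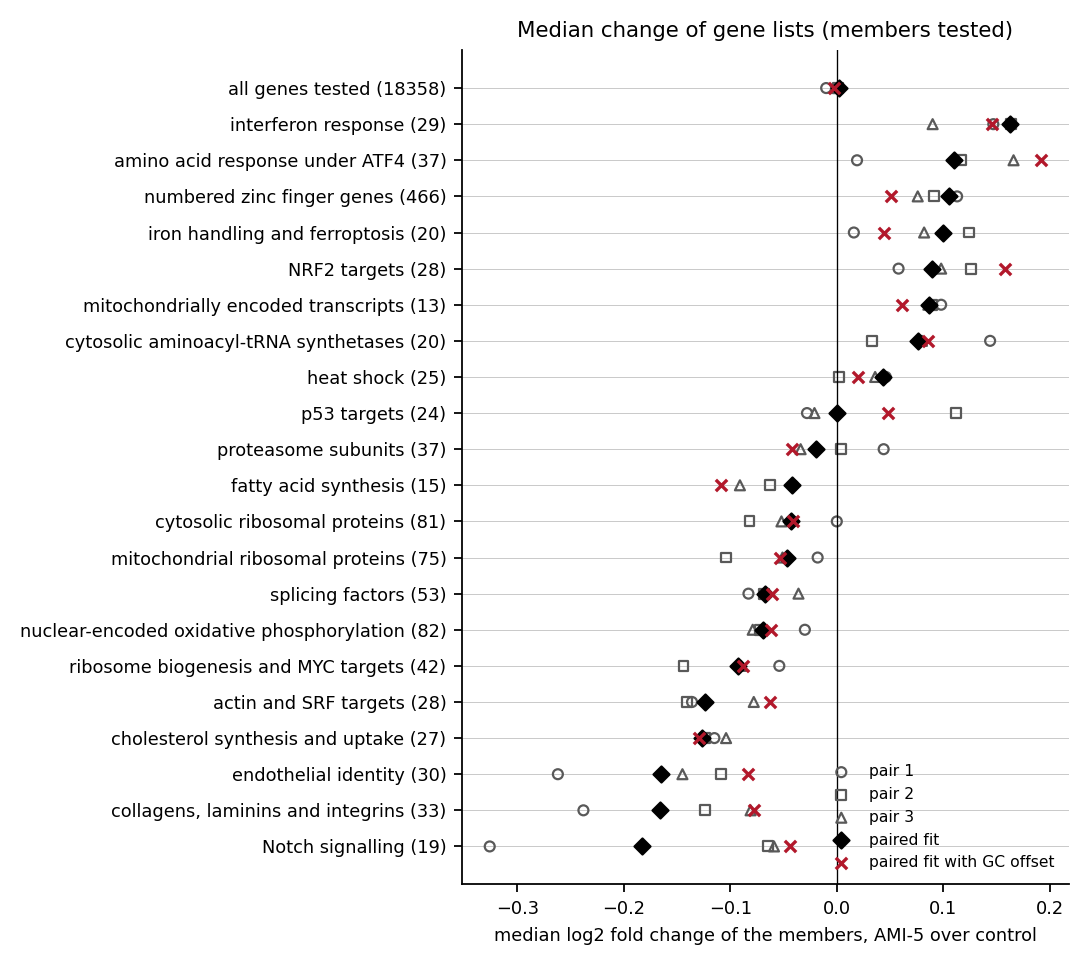
Median log2 fold change of the tested members (number in brackets) of 21 gene lists and of all genes, from the paired fit (black diamonds), from each pair of libraries (open symbols) and with GC correction (red crosses). Sterol genes lie between -0.10 and -0.13 in every pair and both fits, while the endothelial, matrix and Notch medians depend on the pair and on GC correction.

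Small changes in further groups went in both directions. The p53 list had 6 of 24 higher and 3 lower (4 and 3 without replicate number 3), with MDM2, the p53 ubiquitin ligase gene, higher by 0.37 (adjusted p = 1.88e-06). The heat shock list had 7 of 25 higher and 4 lower, but 3 higher without replicate number 3 and 3 higher and 1 lower with GC correction, and HSF1, the factor that drives it, fell by 0.42 (adjusted p = 1.88e-06). HMMR, a mitotic spindle gene, fell by 0.50 (adjusted p = 9.07e-07) in a list of 32 mitotic genes with 4 lower and 3 higher. CCND1 (cyclin D1) fell by 0.39 (adjusted p = 1.39e-06) and CDKN2A by 0.40 (adjusted p = 1.53e-06). Of 20 NF-kB and inflammatory adhesion genes 1 fell and none rose, and of 29 interferon genes 4 rose (2 without replicate number 2) and none fell. Numbered zinc finger genes had 49 of 466 higher, a share of 10.5% near the 9.32% of all genes, and 24 lower. Those counts were 28 and 21 without replicate number 3, 28 and 8 with GC correction and 95 and 12 with total counts. The nuclear long non-coding RNA MALAT1 rose by 0.33 (adjusted p = 3.49e-06), and SNHG6 and SNHG12, hosts of small nucleolar RNAs, by 0.44 (adjusted p = 3.79e-05) and 0.33 (adjusted p = 0.000499).

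Some genes for small nuclear and nucleolar RNAs that have promoters of their own rose by large factors at low counts. U1, U2 and U7 take part in splicing and in histone mRNA processing, and U3 and U8 in the cutting of the ribosomal RNA precursor. Most other small nucleolar RNAs are cut from introns of host genes. SNORD3B-1, a U3 gene, had 13, 20 and 17 reads in controls and 140, 62 and 90 with AMI-5, or 0.939 ± 0.248 and 4.86 ± 1.46 CPM (SD, n = 3). The groups did not overlap, and the rise was 5.11-fold (log2 2.35 ± 0.20, adjusted p = 3.41e-08). SNORD118, the U8 gene, had 14, 23 and 27 reads and then 56, 58 and 52 (log2 1.28 ± 0.21, adjusted p = 0.000111). RNU2-2, a U2 gene, had 16, 21 and 9 reads and then 49, 60 and 63 (1.81 ± 0.25, adjusted p = 1.46e-05). Neither of the last pair overlapped between groups.

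These 3 are the ones that rose among the 6 rows for U1, U2, U3, U4, U7 or U8 that the tables of both compounds hold, and none of the 6 fell. The rest were a U2 copy, a U7 copy and RNU4-5P. Reads of the 6 rows summed to 4.50, 6.98 and 5.51 CPM of total counts in controls 1, 2 and 3 and to 14.4, 14.9 and 11.5 CPM with AMI-5. A further 8 rows are in the AMI-5 table alone. All 8 had a mean control count under 10, while the smallest mean count in that table is 10, so they entered it through the AMI-5 libraries and the direction of their raw counts was fixed by that. Their values are therefore given as a description only: RNU7-1, the U7 gene, had 2, 11 and 4 reads in controls and 16, 35 and 30 with AMI-5, and SNORD3B-2, SNORD3A, a second U8 row and 3 U1 rows had fitted log2 fold changes from 1.40 to 2.74. The remaining row, another U2 copy, had 9, 13 and 7 reads in controls and 16, 14 and 7 with AMI-5. It did not pass in edgeR (log2 0.22, adjusted p = 0.698). Of 92 other rows for box C/D, box H/ACA and Cajal body RNAs 3 rose and 2 fell (median -0.01). Of 15 rows for RNA polymerase III transcripts such as U6, 7SK and RMRP 0 passed in edgeR (median 0.018, with 2 at an unadjusted p under 0.05 and no adjusted p from DESeq2). These classes were drawn up after values had been seen.

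Further limits touch these rows. The libraries were made from poly-A RNA, and these RNAs mostly carry no poly-A tail, so the reads come from a minority of molecules. U3 and U1 genes exist in near-identical copies that share reads. The strand setting is not known here either, so reads of any gene that overlaps a row cannot be told apart from its own. DESeq2, which sets genes of low counts aside, gave none of the rows an adjusted p. Genes for the Integrator complex, which ends transcription of U1 and U2, and for SNAPc, which starts it, rose in 8 of 21 cases (38.1%, beside 9.32% of all genes) and fell in 3, but rose in 5 without replicate number 2 and in 4 with DESeq2. INTS2 rose by 0.41 (adjusted p = 0.000163) and NABP1 by 0.43 (adjusted p = 0.000172), while INTS1 fell by 0.38 (adjusted p = 8.87e-06). That list too was drawn up afterwards, and its part in the small RNA rows was not tested.

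**Figure D4:**
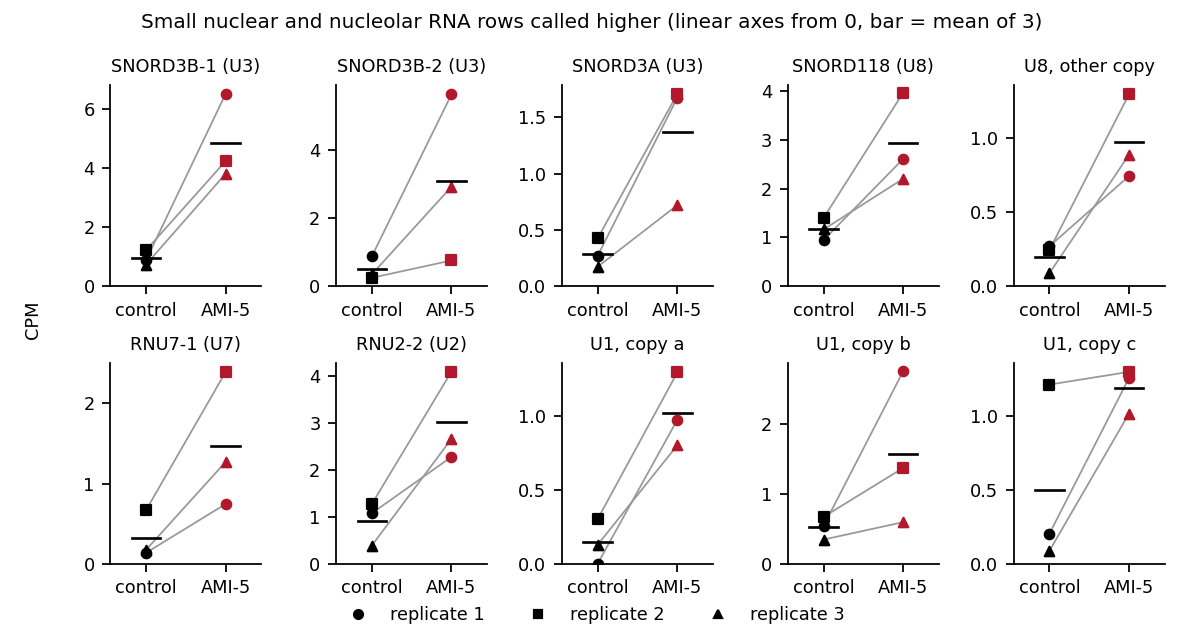
CPM (vertical axes, linear from 0) of the 10 small nuclear and nucleolar RNA rows called higher, in control and AMI-5 libraries joined by replicate number, with a bar at the mean of 3. SNORD3B-1, SNORD118 and RNU2-2 are in both tables, while the other 7 are in the AMI-5 table alone and entered it through their AMI-5 counts, so that their upward lines are a description.

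That minimum also bears on the 305 genes that only the AMI-5 table holds. Of 218 tested 34 rose and none fell, and 162 of the 218 had a mean control count under 10, so that a count of 10 over the table needed the AMI-5 libraries. Their direction is therefore partly fixed by how the table was made. The gene with the lowest adjusted p on the other side, OVGP1, read 0.686 ± 0.123 CPM in controls and 0.406 ± 0.108 CPM with AMI-5 (SD, n = 3) and did not pass (adjusted p = 0.112).

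Transcript GC content moved with the result. The median GC content was 41.0% among genes called higher, 58.1% among those called lower and 48.1% over all genes tested. In 5 equal bins of genes from the lowest to the highest GC content, the median log2 fold change was 0.119, 0.056, -0.004, -0.072 and -0.160. The order was the same in each of the 3 pairs and steepest in pair 1. With an offset for this trend in the paired fit, 1138 genes were higher (6.20%) and 1706 lower (9.29%), of which 763 and 1265 were called in the same direction without it. SLC7A11 (35.4% GC) and CLASP1 (47.4% GC) kept values of 0.83 and -0.82, and HMOX1 (58.1% GC) and ANGPTL4 (63.3% GC), which rose against the trend, went to 1.24 and 0.92. Calls that held without each replicate number in turn and with the offset numbered 354 higher and 801 lower. The fits without a replicate number hold fewer pairs and gave some genes far lower adjusted p, so a call kept there is a limited check. Whether the trend lies in the cells or in library preparation was not tested.

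**Figure D5:**
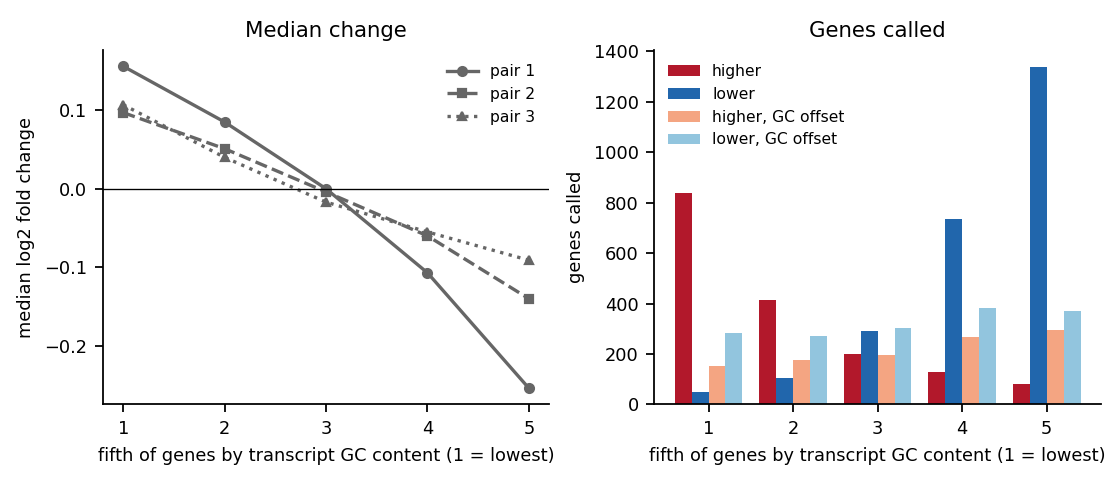
Left: median log2 fold change of genes in 5 equal bins of transcript GC content (horizontal axis) in each pair of libraries. Right: number of genes called higher or lower in each bin, without and with the GC offset. Without the offset, 838 of the genes called higher lie in the lowest bin and 1338 of those called lower in the highest.

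AMI-5 was set directly against AMI-1 over the 9 libraries to see which of these differences separate the compounds, which were given at the same dose for the same time. By the same edgeR test 294 genes were higher with AMI-5 (1.61% of 18284) and 622 lower (3.40%). The log2 difference from AMI-1 was -0.94 ± 0.05 (SE) for POLR2A (adjusted p = 4.51e-09) and -0.90 ± 0.06 for CLASP1 (adjusted p = 6.05e-08). SLC7A11 was higher by 0.92 ± 0.08 (adjusted p = 1.94e-06), HMOX1 by 1.25 ± 0.16 (adjusted p = 0.000193), ANGPTL4 by 0.75 ± 0.10 (adjusted p = 0.000149) and SNORD3B-1 by 2.96 ± 0.28 (adjusted p = 5.97e-06). DIO2 was higher by 2.04 ± 0.18 (adjusted p = 2.55e-06), with -0.85 for AMI-1 against control (adjusted p = 0.105). SEPW1 fell with each compound against control, by 0.91 with AMI-5 and 0.43 with AMI-1 (adjusted p = 0.00919), and the direct difference was -0.48 ± 0.08 (adjusted p = 0.00127). Some falls were not shown to differ: the direct difference was -0.09 ± 0.05 for CCND1 (adjusted p = 0.365) and -0.04 ± 0.08 for the apelin gene APLN (adjusted p = 0.834), where AMI-5 against control gave -0.39 and -0.54 and AMI-1 -0.30 and -0.49. In the other direction CYP1B1, a target of the aryl hydrocarbon receptor, differed from AMI-1 by -3.24 ± 0.18 (adjusted p = 6.74e-09) and read 5.74 ± 1.11 CPM in controls and 4.66 ± 0.310 CPM with AMI-5 (SD, n = 3; adjusted p = 0.0838 against control). The counts of this contrast rested on the pairs: without replicate number 1 they were 24 and 19, and without number 3 they were 1091 and 2294.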

How the data were processed

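Poly-A RNA of 9 HMEC-1 libraries was sequenced, and the 6 of the AMI-5 and DMSO groups were compared. The authors deposited whole-number read counts per gene, 1 table for each compound with the same control columns. The submitters' processing notes name hg19, BWA and bedtools. For the annotation, the filter on genes and the strand setting, nothing is stated in the labels or headers. Depth is the total count per library, and p-values rest on the spread between pairs as well as on counting error.

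Counts as deposited were tested with edgeR 4.0.16 (R 4.3.3), using TMM scaling, filterByExpr (240 genes removed), the quasi-likelihood F test with replicate number as a block, and Benjamini-Hochberg adjustment at 0.05. CPM use TMM-scaled totals. The standard error was derived from the log2 fold change and its F value. Pairing rests on the replicate numbers and on codes that same-numbered columns share, whose meaning is not given. Same-numbered libraries deviated together from their group means (r = 0.792, 0.863 and 0.551, against -0.778 to 0.319 for other pairs).

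GC content was that of the longest GENCODE 29 transcript, found for 95.7% of genes tested. The GC alternative put a lowess curve (span 0.3) per library into the fit as an offset. Other alternatives were no block, DESeq2 1.42.0, DESeq2 size factors, total counts, no filter, all 9 libraries and leaving out libraries. On simulated data for AMI-5 against control (18358 genes) the paired test recovered 86.6%, 97.0% and 100.0% of genes changed by 1.5, 2 and 4-fold. Without the block 0%, 10.4% and 65.2% were recovered. Of the unchanged genes 6 were called with the block and 0 without. The simulated counts were drawn from the means and dispersions of the paired fit, so the lead of the paired test was built in. Changes under 1.5-fold, the size of most calls, were not simulated. The changed genes were drawn only from those above a floor of abundance, so recovery among genes of the lowest counts was not tested.

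Genes were named by rule: the 12 largest rises and falls at a mean of 5 CPM or more in the higher group and 3 of 3 pairs alike, the 10 lowest adjusted p, up to 4 genes per list by adjusted p, PRMT1, CARM1, PRMT5 and SETD7, and the 5 lowest adjusted p each way among genes of the AMI-5 table alone. The rule gave 235 genes, of which the text names a part, picked with their values in view, and 1 is not reported here. Others, including those of the small RNA, Integrator and PPAR groups, were chosen after their values were seen. The comparison and the gene lists were chosen with earlier results of these data known.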

Additional observations from a re-analysis of the deposited data

How the results depend on the processing

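The pairing carries the result. Without the replicate block, 0 genes were higher and 0 lower with AMI-5 than with control, and likewise 0 and 0 in the contrast with AMI-1 (404 and 483 genes at an unadjusted p under 0.05). Leaving out 1 library at a time without the block, run for the contrast with control alone, also gave 0 and 0 there. With the block, leaving out each replicate number gave 881 to 1569 genes higher and 1678 to 2295 lower than control, and 24 to 1091 higher and 19 to 2294 lower than AMI-1. Higher and lower genes numbered 1138 and 1706 with the GC offset, 2928 and 1618 with total counts, 334 and 1436 with DESeq2, and 625 and 1363 in the fit of 9 libraries. Against AMI-1 they numbered 864 and 1170 with the GC offset and 146 and 549 with DESeq2. The cause of these differences was not tested, apart from the smaller number of genes that DESeq2 adjusts.

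Of the 110 called genes named in the text, 100 kept their call without each replicate number and with the GC offset, and 110 kept it with DESeq2 size factors and with no filter. DESeq2 kept 79, lost SLC25A20 (adjusted p = 0.0768) and NABP1 (0.0931), and gave the others no adjusted p. The fits without a replicate number are a limited check. They hold fewer pairs, and their adjusted p in edgeR fell far below the main fit for some genes and rose for others. For POLR2A it went from 2.06e-13 to 6.63e-103 without number 1, and for GARS from 0.00631 to 0.0745 without number 2. The RP11-525A16.4 difference of -0.79 ranged from -1.28 to 0.0084 when single libraries were left out without the block. Low counts limit the small RNA rows, and the residual degrees of freedom of the paired fit (2 per gene) are few.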
